A study of Rattus norvegicus with 6 samples.

Results

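The members described here are the probes for RefSeq non-coding RNA records on a rat gene expression array: every probe other than controls whose target accession begins with NR_ or XR_, apart from the single probe for H19. They were 274 of 30367 probes and stood for 248 accessions. NR_ marks a curated non-coding RNA record, and 29 probes (28 accessions) carried one. XR_ marks a non-coding model record predicted by software from a genome assembly, and 245 probes (220 accessions) carried one. The rule uses the accession and the name H19, and no signal value.

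Total RNA from liver tissue of 6 rats (Rattus norvegicus) was measured, 1 array per animal, in 3 normal livers and 3 livers with fibrosis produced by bile duct ligation. Bile duct ligation ties off the common bile duct, so that bile builds up, bile ducts multiply and scar tissue forms. The strain, sex and age of the rats, the time after ligation and whether the normal rats had a sham operation are not given in the sources used here. Replicate numbers follow the order of the records and pair no animals.

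Non-coding RNAs are transcripts that act as RNA or whose act of transcription matters, and they include long non-coding RNAs (lncRNAs), antisense transcripts, the RNA parts of enzymes and transcripts of pseudogenes. An lncRNA can guide chromatin or splicing factors, host small nucleolar RNAs (snoRNAs) in its introns, or simply be made beside an active gene. A transcribed pseudogene resembles a protein-coding parent gene, so a probe for it can also bind the parent's transcript.

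Accessions, without their versions, were matched to RefSeq's list of rat genes (assembly GRCr8) for names. It named 25 probes for 24 genes: 14 lncRNAs, 8 transcribed pseudogenes, the telomerase RNA Terc and Rpph1, which the table classes as RNase MRP RNA. The other 249 probes, 4 of them NR_ and 245 XR_, matched no entry and are called by their accession. Among widely studied non-coding RNAs, Gas5, Terc and Rpph1 carried a name here.

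A promoter sequence was held for 11 of the 24 named genes. The sequences of 3 are shown because the results turn on these genes: Abhd11-as1 gave the largest named difference between the groups, Abhd11 is the gene whose strand it opposes, and Gas5 is the best-known lncRNA of the set. Each runs from 250 bases before to 50 bases after the start of the gene, is 300 bases long, reads along the gene's own strand and comes from RefSeq (GRCr8). Abhd11-as1 lies at chr12:27317406-27317705 on the plus strand, Abhd11 at chr12:27321414-27321713 on the minus strand and Gas5 at chr13:75836713-75837012 on the plus strand. Capitals mark matches, on either strand, to 5 short motifs: GGGCGG (a GC box, read CCGCCC on the opposite strand), the CCAAT box, the TATA box TATAAA, the E-box CACGTG and the full cAMP response element TGACGTCA.

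Abhd11-as1: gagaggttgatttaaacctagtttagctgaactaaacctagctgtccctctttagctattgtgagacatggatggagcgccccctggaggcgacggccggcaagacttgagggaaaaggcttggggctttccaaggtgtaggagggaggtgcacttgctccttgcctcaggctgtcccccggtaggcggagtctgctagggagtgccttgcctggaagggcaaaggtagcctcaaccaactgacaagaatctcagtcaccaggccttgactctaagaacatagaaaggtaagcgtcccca
Abhd11: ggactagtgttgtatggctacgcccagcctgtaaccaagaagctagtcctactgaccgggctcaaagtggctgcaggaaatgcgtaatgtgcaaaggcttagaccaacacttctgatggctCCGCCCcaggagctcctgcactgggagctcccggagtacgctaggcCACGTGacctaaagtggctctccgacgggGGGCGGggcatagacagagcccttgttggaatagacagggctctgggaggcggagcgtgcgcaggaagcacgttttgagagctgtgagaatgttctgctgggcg
Gas5: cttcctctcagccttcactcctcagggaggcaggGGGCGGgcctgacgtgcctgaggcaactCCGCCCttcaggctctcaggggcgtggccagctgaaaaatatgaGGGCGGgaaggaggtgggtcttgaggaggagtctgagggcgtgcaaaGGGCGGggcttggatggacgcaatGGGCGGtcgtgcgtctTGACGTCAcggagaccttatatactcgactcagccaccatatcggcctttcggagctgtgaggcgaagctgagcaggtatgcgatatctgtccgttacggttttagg

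The Abhd11-as1 promoter held 0 matches, the Abhd11 promoter held 2 GC boxes and 1 E-box, and the Gas5 promoter held 5 GC boxes and 1 full cAMP response element. Over all 33469 promoters of the table, the GC box occurred in 33.1%, the CCAAT box in 37.5%, the TATA box in 14.2%, the E-box in 6.42% and the full cAMP response element in 1.83%. The Abhd11-as1 window was 54.3% G and C with 7 CpG dinucleotides, the Abhd11 window 58.7% with 15, and the Gas5 window 60.3% with 20, against medians of 51.7% and 7 over all promoters. These matches describe letters and not bound sites.

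Levels are given as the log2 of the processed signal minus the log2 of the array's 75th percentile, so 0 means a signal equal to that percentile and 1 unit is a doubling. A difference is the mean of the fibrotic livers minus the mean of the normal livers on that scale, with its standard error (SE). Spots that the scanner software marked as uneven or as outliers, called marked spots here, were left out. Testing with limma covered a probe where every array of 1 or both groups read it well above background and each group kept 2 or more values. A probe was called at a Benjamini-Hochberg adjusted p under 0.05 over all tested probes of the array. A probe that passed through 1 group alone was dim on some array of the other, so the filter itself favoured its direction. Among the named calls this held for Abhd11-as1, XR_085975, XR_146326, XR_146410 and XR_146145, through fibrosis, and for XR_146222, through normal. Their p-values are weaker support for that reason. A level cannot be compared between different probes, because each binds with its own strength.

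Processed signals had a 75th percentile of 4016 ± 330 in normal livers and 5453 ± 833 in fibrotic livers (mean ± SD, n = 3 each), and 0 spots were saturated. Marked spots made up 24.0% to 35.2% of spots on normal arrays and 18.8% to 33.0% on fibrosis arrays. All 12 markers of hepatocytes, the main cells of the liver, were well above background on all 6 arrays. All arrays lay on 1 slide. Fibrosis array 1 shared the first row of that slide with the normal arrays, and the other fibrosis arrays, 2 and 3, lay in the second row. A fit with the slide row as a block therefore sets fibrosis array 1 alone against the normal arrays. In that fit, arrays 2 and 3 add only to the error term.

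Fibrotic livers had more of a minority of these transcripts and less of a few. Of the 114 non-coding probes that could be tested, 16 rose and 4 fell in fibrosis by limma, which is 17.5% of them. Over all 12620 tested probes 20.0% were called, 15.2% higher and 4.83% lower, so the share among the non-coding probes lay near the background. The tested non-coding probes had a median difference of 0.11, beside -0.01 for all tested probes. An unadjusted limma p under 0.05 was found for 35 of the 114, beside 4065 of the 12620, so this share too lay near the background. Of the 20 calls, 19 were at least 2-fold, beside 2363 of the 2525 calls over all probes. With the slide row as a block, and so with fibrosis array 1 alone for fibrosis, fewer probes were called, among the non-coding probes and over all probes. In whole tissue, more cells of a type and more RNA per cell cannot be told apart.

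Of 74 tested non-coding probes with a value on every array, the groups did not overlap for 28 (19 higher and 9 lower in fibrosis), which is 37.8%, beside 38.3% over all probes (23.8% higher and 14.5% lower). With marked spots kept, 182 non-coding probes could be tested, 20 were called higher and 5 lower, and their median difference was -0.08 beside -0.10 for all probes. The share called was then 13.7%, beside 19.1% over all 19731 probes tested (12.4% higher and 6.79% lower). Groups did not overlap for 64 of the 182 (36 higher and 28 lower), beside 38.4% over all probes (19.1% higher and 19.3% lower). The split between directions depends on the scaling: scaled to the array median, 14 non-coding probes were higher and 15 lower (all probes 1440 and 1678), and with quantile normalization 13 and 9 (all probes 1420 and 1150).

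**Figure D1:**
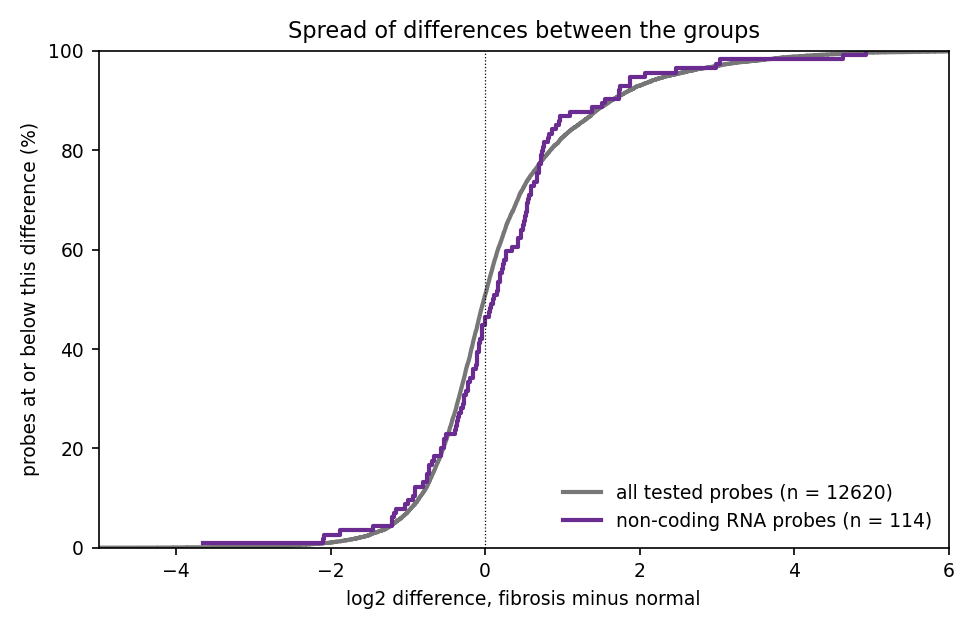
Cumulative share of probes (vertical axis, percent) at or below each log2 difference, fibrosis minus normal (horizontal axis), for the 114 tested non-coding RNA probes (purple) and all 12620 tested probes (grey). The curves lie close together, with medians of 0.11 and -0.01, and both have a longer tail towards increases.

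Abhd11-as1, an antisense lncRNA gene beside the alpha/beta hydrolase gene Abhd11, had the largest difference of all the tested non-coding probes. Its levels were -3.10, -4.04 and -5.98 in the normal livers and 0.06, 0.47 and 1.13 in the fibrotic livers. The difference was 4.93 (SE 0.67, n = 3 per group, limma adjusted p = 0.00156), or 30.4-fold. The groups were far apart, the normal livers also spread widely among themselves, and the probe was well above background on 2 of the 3 normal arrays. This call held under every alternative that could be computed for it, with differences from 4.12 to 5.56.

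On rat chromosome 12, the RefSeq table places Abhd11-as1 on the plus strand between Stx1a, a syntaxin of membrane fusion, and Abhd11 on the minus strand. The claudin genes Cldn3 and Cldn4, which encode tight junction proteins, follow on the far side of Abhd11. With marked spots kept, Cldn4 rose by 5.20 (SE 0.43, limma adjusted p = 0.000165). Stx1a was called higher (adjusted p = 0.00258) but was well above background on 0 normal arrays. Its normal readings are thus at background, and it was tested through the fibrotic livers alone. It was 3.15-fold higher in fibrosis, set against the higher, on each normal array, of its own signal and the dimmest signal that passed as well above background. That dimmest signal can come from any probe, so the fold is not a strict lower bound. Abhd11 itself differed by 0.33 (SE 0.29, adjusted p = 0.475) and Cldn3 by 0.61 (SE 0.26, adjusted p = 0.148). Thus Abhd11-as1, Stx1a and Cldn4 were called higher, and Abhd11 and Cldn3 were not.

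The ratio of the Abhd11-as1 signal to the Abhd11 signal within each array needs no scaling between arrays. Its log2 value ran from -5.85 to -2.05 in normal livers and from 0.30 to 1.29 in fibrotic livers, a change of 4.60 (exact permutation test, two-sided, p = 0.1). With 3 arrays per group, 0.1 is the smallest p this test can give. Against Cldn3 the ratio changed by 4.32 (exact p = 0.1), with no overlap between the groups. Abhd11-as1 was chosen for its large difference, and Abhd11 and Cldn3 changed little. Separation of the groups in both ratios followed from that choice, so neither p adds support. Against Cldn4 the groups overlapped, the ratio ran from -0.49 to 1.90 in normal and from -0.60 to 1.72 in fibrotic livers, and the change was -0.27 (exact p = 0.7).

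Markers of bile duct cells, among which Cldn4 was listed, moved with this result. With marked spots kept, 8 of 9 tested cholangiocyte markers were called higher and 0 lower, and their summed linear level went from between 0.722 and 0.926 of the array's 75th percentile in normal livers to between 10.5 and 12.8 in fibrotic livers. Of 11 tested markers of stellate cells and myofibroblasts, the scar-forming cells, 6 were called higher and 0 lower, with sums of 6.23 to 9.97 against 14.7 to 33.8. The sum over the 12 hepatocyte markers was 183 to 199.6 in normal and 110 to 137 in fibrotic livers, with 0 called higher and 2 lower. Among the other marker lists, cell division genes had 5 of 7 tested members called higher, neutrophils 2 of 3 and mesothelium 1 of 2, with 0 lower in each. The array held 7 of the neutrophil and 4 of the mesothelium markers, and those not tested were too dim. Wt1, the mesothelium marker not called, differed by -0.51 on the probe counted and by 4.06 on another tested probe. Macrophages had 0 higher and 1 lower of 9, lymphocytes 0 and 1 of 6, erythroid cells 0 and 1 of 3, and endothelium 0 and 0 of 7. Over all probes tested with marked spots kept, 12.4% were called higher and 6.79% lower. The part of these cell types in the differences of the non-coding probes was not tested.

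**Figure D2:**
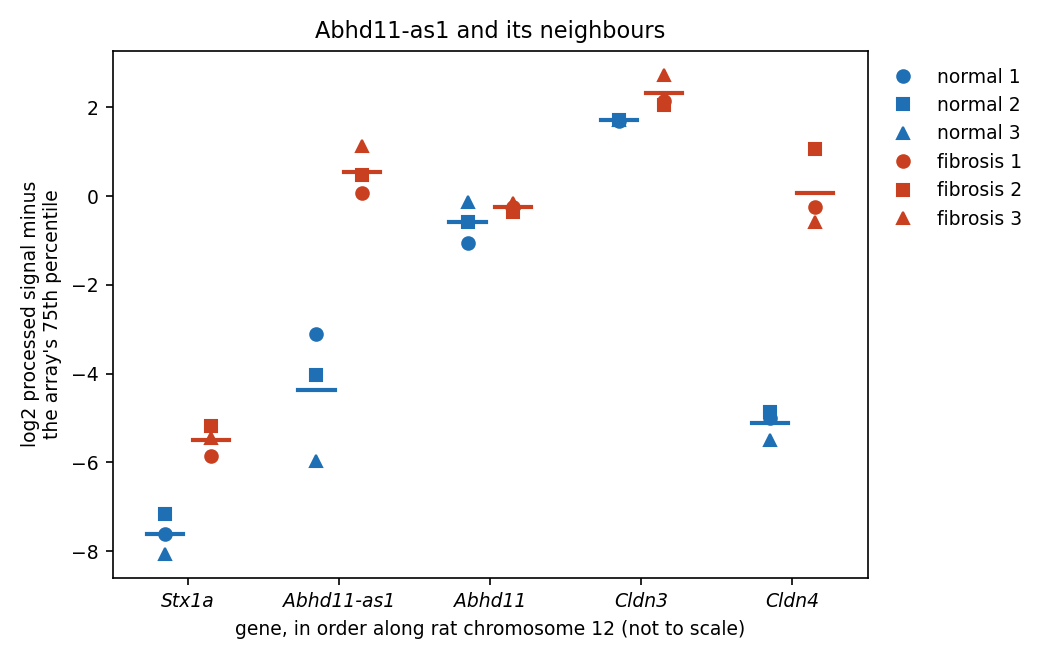
Log2 processed signal minus the array's 75th percentile (vertical axis) for Abhd11-as1 and its neighbours in their order along rat chromosome 12 (horizontal axis, not to scale), with all spots used. Blue marks are normal livers, red marks fibrotic livers, the shape gives the replicate and the bars are group means. Abhd11-as1 and Cldn4 show the widest gaps between groups, while the groups of Abhd11 overlap.

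AA926063, an lncRNA gene of the major histocompatibility region of chromosome 20, was the other named transcript that rose. Its levels were -1.59, -0.98 and -1.47 in normal and -0.10, -0.32 and 0.52 in fibrotic livers. The difference was 1.38 (SE 0.31, n = 3 per group, limma adjusted p = 0.0162), or 2.60-fold, and the groups did not overlap. Without normal replicate 1 the adjusted p was 0.0671 and without normal replicate 3 it was 0.0718. The call was also lost with the slide row as a block. Its 5 tested neighbours lay on either side of 0 and 0 were called. With marked spots kept, Daxx, a histone chaperone gene, differed by 1.05 (adjusted p = 0.275), Zbtb22, a zinc finger gene, by 0.37 (adjusted p = 0.438) and Kifc1, a kinesin gene of the spindle, by 0.18 (adjusted p = 0.782). Phf1, a Polycomb-associated gene, differed by -0.61 (adjusted p = 0.310) and Cuta by -0.37 (adjusted p = 0.366).

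The other 14 increases belonged to XR_ records without a gene name, so no role can be given for them. XR_085975 had levels of -3.70, -4.38 and -5.73 in normal and 0.16, -0.47 and 0.38 in fibrotic livers. The difference was 4.63 (SE 0.50, n = 3 per group, limma adjusted p = 0.000514), or 24.8-fold. As with Abhd11-as1, its normal levels were low and widely spread, with 2 of 3 normal arrays well above background, and the call held under every alternative computed for it.

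XR_146326 stood at -5.89, -7.01 and -5.98 in normal and -3.62, -3.04 and -3.10 in fibrotic livers, a difference of 3.04 (SE 0.36, adjusted p = 0.000737). It was well above background on 1 of 3 normal arrays and on all 3 fibrosis arrays, so 2 of its normal readings are at background. With normexp background correction the difference was 1.60 (adjusted p = 0.00135). XR_145924 stood at -5.16, -5.79 and -5.61 against -3.08, -2.57 and -1.95, a difference of 2.99 (SE 0.34, adjusted p = 0.000652). Both transcripts were low in every normal liver and higher in every fibrotic one, but a second probe for XR_145924 was above background on no array, so that record rests on a single probe.

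XR_145822 stood at -3.06, -3.34 and -3.35 in normal livers and -0.86 and -0.70 in 2 fibrotic livers, the spot on fibrosis array 3 being marked. The difference was 2.47 (SE 0.28, adjusted p = 0.00103), and with the marked spot kept the level on fibrosis array 3 was 0.28 and the difference 2.83. The normal livers lay within a narrow band, well below each fibrotic liver.

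XR_146410 was the 1 non-coding probe above background in all 3 fibrotic livers and in 0 normal livers. The probe read -7.41, -6.86 and -5.88 in normal livers and -4.02, -4.75 and -5.16 in fibrotic livers (difference 2.08, SE 0.45, limma adjusted p = 0.0138). The filter admitted this probe through the fibrotic livers alone, which favoured an increase before the test. Its normal readings are at background, and by the same rule as for Stx1a it was 4.12-fold higher in fibrosis. That fold too is not a strict lower bound. The difference fell to 0.80 (adjusted p = 0.0747) with normexp background correction and missed the threshold without normal replicate 2 (adjusted p = 0.0534).

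XR_145793 was printed 10 times on each array, which makes it the most repeatedly measured of the increases. It stood at -0.65, -0.32 and -0.22 in normal and 1.68, 1.51 and 1.23 in fibrotic livers, a difference of 1.87 (SE 0.25, adjusted p = 0.00160), or 3.66-fold. The groups were clearly apart, and the SD over its spots within an array was 0.0885, less than the SD between livers of 0.223 in normal and 0.226 in fibrotic rats.

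XR_008822 stood at -2.18, -2.09 and -2.46 in normal and -0.46, -0.65 and -1.06 in fibrotic livers, a difference of 1.52 (SE 0.26, adjusted p = 0.00521). XR_085785 stood at -3.06, -3.67 and -3.53 against -2.06, -1.33 and -1.66, a difference of 1.74 (SE 0.29, adjusted p = 0.00458). In both, each fibrotic liver was above each normal liver. XR_008822 kept its call under every alternative, while XR_085785 lost it with the slide row as a block (difference 1.36).

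In 4 further increases, 1 fibrosis array was lost to a marked spot. XR_085607 read -3.29, -3.30 and -3.20 in normal livers against -0.81 and -1.96 (difference 1.88, SE 0.38), and XR_145833 read -4.97, -4.94 and -5.02 against -2.75 and -3.72 (difference 1.74, SE 0.35). XR_009630 read -0.11, -0.76 and -1.02 against 1.00 and 1.20 (difference 1.73, SE 0.35), and XR_146143 read -4.98, -5.10 and -5.25 against -3.90 and -3.23 (difference 1.55, SE 0.31). A second probe for XR_146143 was too dim to be tested. The measured fibrotic livers all lay above the normal livers, with limma adjusted p from 0.0136 to 0.0139. With the marked spots kept the differences were 2.18, 2.13, 1.77 and 1.59 in the same order. Each of these calls was lost when certain single arrays were left out: normal 2 or fibrosis 1 for XR_085607, normal 3 or fibrosis 1 for XR_145833, normal 2 or 3 for XR_009630, and normal 2, normal 3 or fibrosis 2 for XR_146143. Where the array left out was a normal one, the adjusted p ran from 0.0516 to 0.0622. Where it was a fibrosis array, 1 fibrotic value was left, so those fits show little. The slide row as a block also ended the calls of XR_009630 (difference 1.63) and XR_146143 (difference 1.22), and quantile normalization that of XR_146143 (adjusted p = 0.0542).

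The smallest increases were the least firm. XR_146145 rose by 1.10 (SE 0.32, adjusted p = 0.0422), from -5.04, -4.94 and -5.76 to -3.76, -4.43 and -4.24, and a second tested probe for it differed by 0.70 with overlapping groups (adjusted p = 0.199). XR_007272, which falls outside the naming rule and was added after its values were seen, rose by 0.91 (SE 0.25, adjusted p = 0.0362), from -4.84, -5.05 and -5.25 to -4.10, -3.94 and -4.37. Across 16 alternatives and left-out arrays with a value, XR_146145 kept its call in 4.

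**Figure D3:**
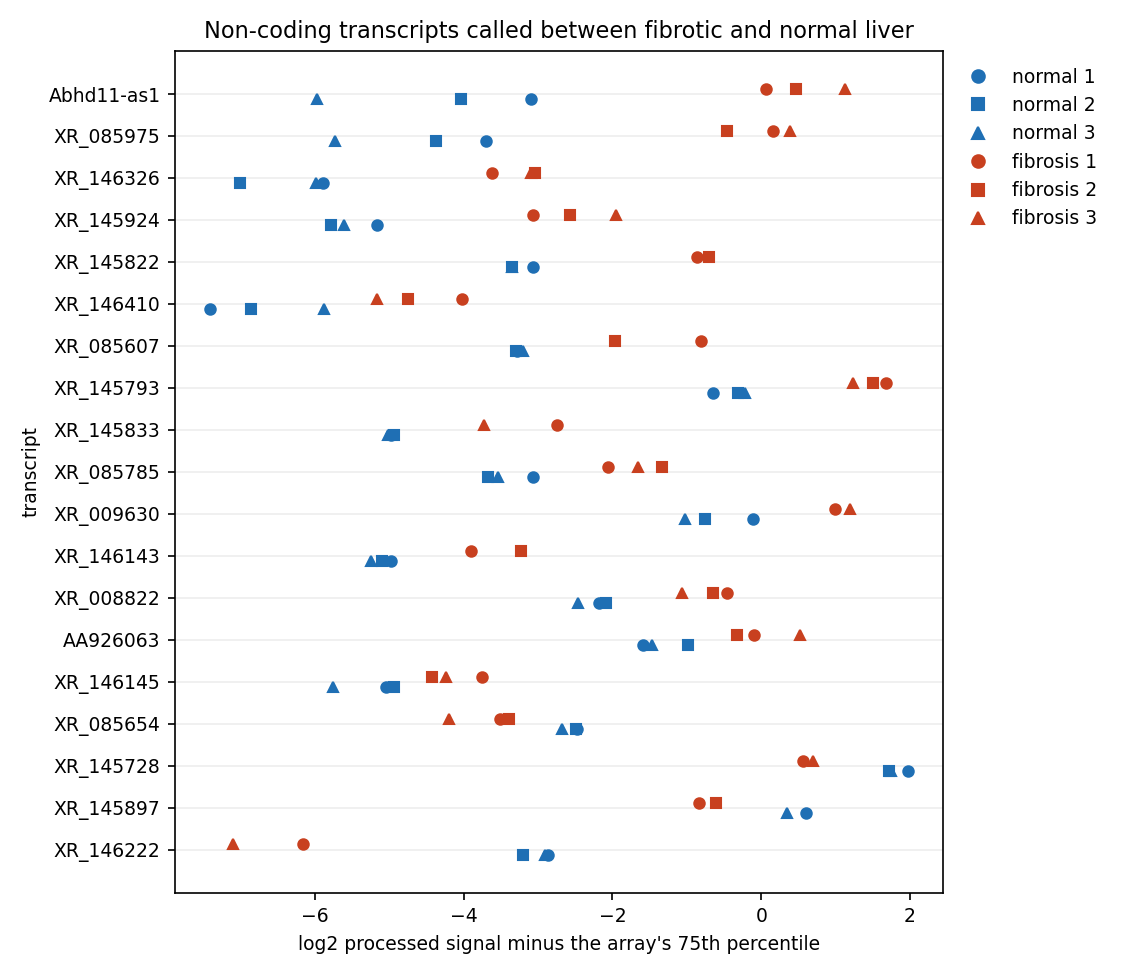
Log2 processed signal minus the array's 75th percentile (horizontal axis) on each array for 19 of the 20 called non-coding probes (rows), without marked spots. Blue marks are normal livers, red marks fibrotic livers and the shape gives the replicate. The upper 15 transcripts have all red marks to the right of the blue ones, and the lower 4 have them to the left.

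Only 4 probes fell, and all were unnamed XR_ records. XR_146222 stood at -2.87, -3.20 and -2.91 in normal livers and at -6.17 and -7.11 in 2 fibrotic livers, a difference of -3.64 (SE 0.36, limma adjusted p = 0.000559). The third value hung on a marked spot: kept, fibrosis array 2 read -3.44, the difference was -2.58 and the adjusted p was 0.0579. The fibrotic livers with an unmarked spot lay well below every normal liver. With all spots counted, the probe was well above background on 3 normal and 2 fibrosis arrays, so not every fibrotic reading was above background.

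XR_085654 stood at -2.48, -2.49 and -2.68 in normal and -3.52, -3.39 and -4.20 in fibrotic livers, a difference of -1.15 (SE 0.29, adjusted p = 0.0243), and was the only decrease with a value on every array. It lost its call in 6 of 17 settings, among them the slide row as a block, E1A spike-in scaling (adjusted p = 0.133), no filter on dim probes (0.0665) and each normal array left out (0.0753 to 0.0878). XR_145897 stood at 0.60 and 0.35 in 2 normal and -0.84 and -0.61 in 2 fibrotic livers (difference -1.20, SE 0.32, adjusted p = 0.0477). It lost its call in 9 of 17 settings, among them the slide row as a block, cyclic loess (adjusted p = 0.0600) and every array left out but fibrosis 3. Leaving out an array with a value left 1 value in its group. XR_145728 stood at 1.97, 1.72 and 1.74 against 0.57 and 0.70 (difference -1.18, SE 0.27, adjusted p = 0.0228), but with the marked spot kept fibrosis array 2 read 2.17, above every normal liver, and the adjusted p was 0.322. That call too was lost in 9 of 17 settings. Scaled to the E1A spike-in controls, 1 non-coding probe was called lower in place of 4 and 23 higher in place of 16, while over all probes 165 were lower in place of 610 and 2369 higher in place of 1915.

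Keeping marked spots allowed 5 further probes to be called that otherwise had too few arrays. XR_146319 fell from 3.96, 4.05 and 4.36 to 3.09, 2.79 and 2.73 (difference -1.26, SE 0.24, limma adjusted p = 0.00901), and XR_145972 fell from -1.36, -1.46 and -0.94 to -2.05, -2.44 and -2.59 (difference -1.11, SE 0.27, adjusted p = 0.0221). A second tested probe for XR_145972 differed by -0.60 and was not called. XR_146147 rose from -0.14, 0.20 and 0.46 to 1.67, 1.00 and 1.79 (difference 1.31, SE 0.30, adjusted p = 0.0183). XR_146606 rose by 1.09 (adjusted p = 0.0218) and XR_146039 by 0.94 (adjusted p = 0.0220). In none of these 5 did the groups overlap, and each call was lost with the slide row as a block. Over 12 settings with marked spots kept, XR_146319 lost its call in 6 and XR_145972 in 5. XR_146147 lost its call in 4, XR_146606 in 7 and XR_146039 in 6. A record tested both ways, XR_008617, was called higher with marked spots kept (difference 1.01, adjusted p = 0.0279) and not without them (difference 0.87, adjusted p = 0.0795), and it was named after its values were seen.

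Gas5, the host gene of many C/D box snoRNAs and known for building up in cells that stop growing, did not pass the test. It was printed 10 times per array and read 2.77, 2.76 and 2.76 in normal and 2.29, 2.39 and 1.91 in fibrotic livers. The difference was -0.57 (SE 0.24, n = 3 per group, limma adjusted p = 0.147), with every fibrotic liver below every normal one. The SD between livers was 0.00656 in normal and 0.254 in fibrotic rats, and with marked spots kept it was 0.0694 and 0.272. The SD between single spots of 1 array was 0.0981, which is an unlike measure, since each level is a mean over spots. It was called when scaled to the array median (difference -0.92, adjusted p = 0.0291) and with the trend and robust settings of eBayes (adjusted p = 0.0414). Other scalings made the difference smaller, -0.22 with quantile normalization (adjusted p = 0.548), -0.21 with E1A scaling (adjusted p = 0.696) and -0.16 with cyclic loess (adjusted p = 0.691).

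Serpinc1, Cenpl and Klhl20, which lie near Gas5 on chromosome 13, were not called. With marked spots kept, Serpinc1, which encodes antithrombin, differed by -0.69 (adjusted p = 0.0696), Cenpl, a centromere protein gene, by -0.87 (adjusted p = 0.0661) and Klhl20, an adaptor of a ubiquitin ligase, by 0.17 (adjusted p = 0.641). Of the C/D snoRNA proteins, 5 were tested and 0 called, with a median difference of 0.36. Of the factors of nonsense-mediated decay, the pathway known to limit Gas5, 6 were tested and 0 called, with a median of -0.21.

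Terc, the RNA template of telomerase, read -3.46, -3.61 and -3.39 in normal and -3.12, -3.25 and -1.23 in fibrotic livers. The difference was 0.95 (SE 0.51, limma adjusted p = 0.240). Most of it came from fibrosis array 3, the other fibrotic livers lying just above the normal ones. Tert, the protein part of telomerase, was above background on 1 normal and 0 fibrosis arrays. Of 6 tested genes for telomerase and H/ACA snoRNA proteins, 0 were called higher and 1 lower (Nop10, difference -0.84, adjusted p = 0.0454, marked spots kept).

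Rpph1 is the symbol of the RNA of RNase P, which trims tRNA precursors, while the table's class and a synonym point to the related RNase MRP RNA, so which of them the probe reads was not settled here. It read -0.51, -1.42 and -1.01 in normal and -1.38, -1.50 and 0.66 in fibrotic livers, a difference of 0.24 (SE 0.57, limma adjusted p = 0.815). The groups overlapped, and fibrosis array 3 again stood above the rest. Without fibrosis replicate 3 the difference was -0.46, and it was also below 0 at -0.11 with the array median, -0.13 with array weights and -0.40 with the slide row as a block. Of 10 tested protein subunits of RNase P and RNase MRP, 1 was called higher with marked spots kept (Rpp38, difference 1.29, adjusted p = 0.0260) and 0 lower.

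Across 8 lists of proteins that bind, process or degrade non-coding RNA, 52 of 64 genes had a probe on the array. With marked spots kept 49 were tested, and 1 was called higher and 2 lower, beside 12.4% higher and 6.79% lower over all probes. The median difference of the 49 was -0.02, beside -0.10 over all probes. The decreases were Nop10 and Hexim1, the inhibitor held in the 7SK RNA particle (difference -1.33, SE 0.23, adjusted p = 0.00604). Exosc5, a subunit of the RNA exosome, was called lower without marked spots (difference -1.20, adjusted p = 0.0428) and not with them (difference -0.50, adjusted p = 0.482).

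**Figure D4:**
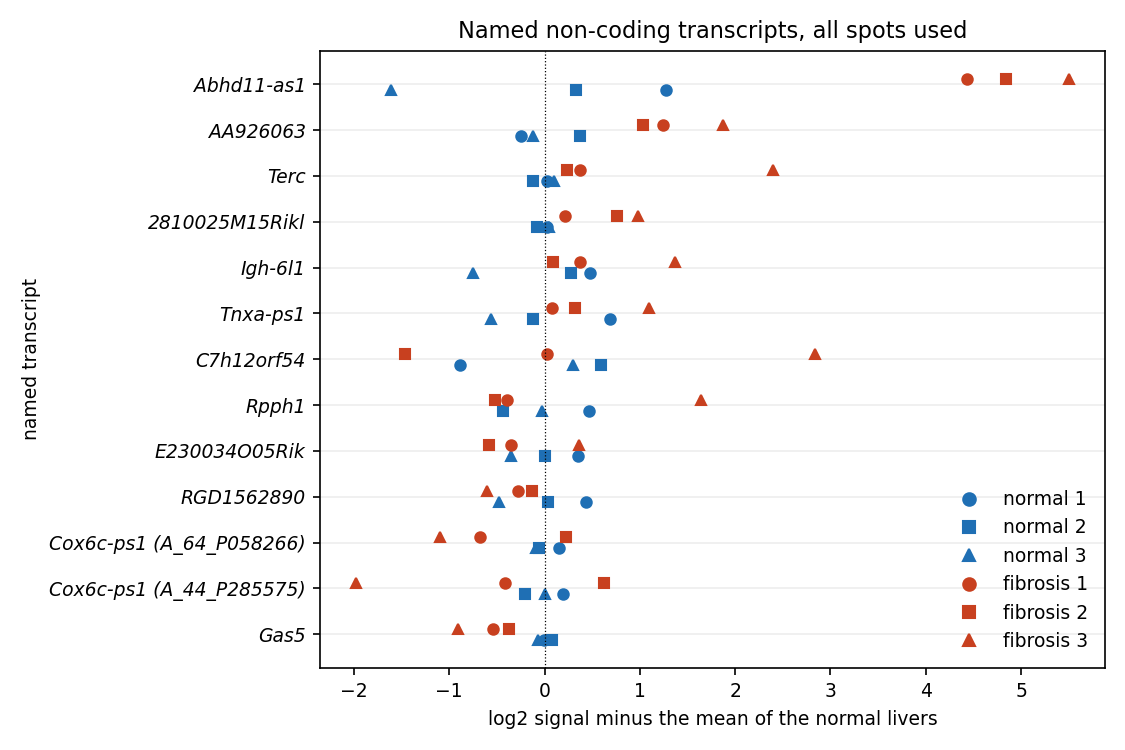
Log2 signal minus the mean of the normal livers (horizontal axis) on each array for the 13 named non-coding probes that could be tested with all spots used (rows). Blue marks are normal livers, red marks fibrotic livers and the shape gives the replicate. Abhd11-as1 and AA926063 stand clear of the normal livers on every fibrosis array, while Terc, C7h12orf54 and Rpph1 have 1 high value, on fibrosis array 3.

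The remaining named lncRNAs that could be tested were not called. 2810025M15Rikl differed by 0.60 (SE 0.32, limma adjusted p = 0.252), Igh-6l1 by 0.75 (adjusted p = 0.364), E230034O05Rik by -0.19 (adjusted p = 0.738) and RGD1562890 by -0.34 (adjusted p = 0.491). C7h12orf54 read -4.61, -6.10 and -1.79 in the fibrotic livers against -5.52, -4.05 and -4.33 in the normal ones, a difference of 0.47 (adjusted p = 0.788). Groups overlapped for all of these but 2810025M15Rikl, and in C7h12orf54 the spread within fibrosis was wide. Of the 4 NR_ records without a name, NR_027366 was tested and differed by -0.27 (adjusted p = 0.622), and the other 3 were not above background on every array of a group.

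Pseudogene probes are uncertain where the parent transcript is nearly identical. The 2 probes of Cox6c-ps1, related to a subunit of cytochrome c oxidase, differed by -0.59 and -0.52 with marked spots kept, and the Cox6c probe by -0.50 (adjusted p = 0.526, 0.358 and 0.280). Tnxa-ps1, a tenascin pseudogene of the complement region, differed by 0.21 (adjusted p = 0.760). Gapdh-ps1, Hmgb1-ps2, Rps7-ps20, Aoc2-ps1, Dzip1-ps1 and Defb16-ps were above background on 0 arrays. The probes of the parents Gapdh, Hmgb1 and Rps7 were above background on all arrays, with none called.

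The probe of Defb16-ps, a beta-defensin pseudogene, stayed dark beside an overlapping gene that rose. Defb17, a beta-defensin gene that overlaps it, read -6.76, -6.18 and -7.14 in normal and -2.70, -1.83 and -2.13 in fibrotic livers (difference 4.47, SE 0.34, limma adjusted p = 0.000124, marked spots kept). Its probe was above background on 1 normal and 3 fibrosis arrays, so it was tested through the fibrotic livers alone. RT1-CE6, a class I histocompatibility lncRNA, was likewise above background on 0 arrays, while the overlapping RT1-CE5 had probes that differed by 0.36 and 3.19.

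Detection showed how many of these records can be read in liver at all. With all spots counted, 159 non-coding probes (58.0%) were well above background on all 6 arrays and 64 (23.4%) on none, beside 57.7% and 22.7% of all probes. Of the NR_ probes 12 of 29 were above background everywhere and 12 nowhere, and of the XR_ probes 147 of 245 and 52 of 245. The curated records had the larger share of probes at background on every array, 41.4% against 21.2%, a difference that was not tested. The named lncRNAs Dcm5, Vof16, RT1-T24-2 and CB741658 were above background on 0 arrays, and Chchd4l1 on 1 fibrosis array.

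Each array detected 176 to 188 non-coding probes in normal and 179 to 202 in fibrotic livers, the highest being fibrosis array 1, on which 78.0% of all spots were well above background. A group of 18 probes was detected in at least 1 fibrotic and in 0 normal livers (6.57% of the non-coding probes, beside 8.56% of all probes), and 3 in normal livers only (1.09% beside 1.32%). Of the 18, 14 were seen on a single array, which was fibrosis array 1 for 10 of them. The other direction of the strict pattern, 3 normal and 0 fibrotic livers, had 0 members. Over all probes, 465 were above background in all fibrotic and no normal livers and 40 in the reverse pattern.

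For 20 accessions the array held more than 1 probe, which gives a check of the readings within a record. In 11 of them at least 2 probes could be tested with marked spots kept, and 10 of the 11 had all probes on one side of 0, the exception being XR_006662 at -0.04 and 0.01. The median gap between the lowest and highest difference of a record was 0.408 and the largest was 0.770. In 8 records 1 or more probes were too dim to be tested while another was tested, as in XR_145740, where 1 of 6 probes was tested (difference -0.45). Too dim here means not above background on every array of either group.

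XR_147150 and XR_146718 each had a pair of probes with the same shape across the arrays. The XR_147150 probes read -4.11, -4.40 and -2.54 and -4.51, -4.67 and -2.94 in normal livers, against -5.53, -8.16 and -5.32 and -4.71, -8.07 and -4.98 in fibrotic ones. In XR_146718 the pair read -5.01, -4.62 and -2.90 and -5.60, -5.47 and -3.91, against -5.88, -7.65 and -5.31 and -5.82, -8.05 and -5.47. All 4 probes were highest on normal array 3 and lowest on fibrosis array 2. Their readings on fibrosis array 2 lay near those of probes detected on no array, such as Htr1d (-8.21) and Tecta (-8.18). The shared shape and the differences thus rest partly on signal near background. The differences were -2.65 and -1.88 for XR_147150 and -2.10 and -1.45 for XR_146718, and the first of these was called with marked spots kept (limma adjusted p = 0.0497) and not without them (-2.08).

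Repeated spots gave the error within an array. Of the 9 non-coding probes printed 10 times, 7 could be tested, with a median SD over spots of 0.0981 (0.0346 to 0.252). The SD between livers ran from 0.00656 to 0.492 in normal and from 0.226 to 0.813 in fibrotic rats. Over the tested non-coding probes the median SD was 0.269 in normal and 0.442 in fibrotic livers, beside 0.240 and 0.423 over all probes. Readings thus varied more among the fibrosis arrays than among the normal arrays in both sets. The fibrosis arrays spanned both rows of the slide and the normal arrays shared the first row. Variation between livers and between rows therefore cannot be told apart here.

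Fibrosis arrays 2 and 3 were the ones that most often stood apart. Among 182 non-coding probes, fibrosis array 2 lay more than 1 log2 unit from both other fibrosis arrays in 11.5% (11 above and 10 below) and fibrosis array 3 in 11.5% (10 above and 11 below), beside 7.66% and 11.7% of all probes. Fibrosis array 1 did so in 1.10%, and the normal arrays in 0.549% to 4.95%. Both arrays also lay in the second row of the slide, so row and array cannot be told apart for them.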

How the data were processed

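Total RNA from 3 normal and 3 fibrotic rat livers was labelled with Cy3 and hybridised to 1-colour Agilent arrays, per the labels. The deposited values are spot intensity values on a linear scale, background-subtracted and detrended by Agilent Feature Extraction 11.5.1.1, per the file headers, with no normalization between arrays recorded. The tables made here hold log2 of these deposited intensities minus each array's 75th percentile, averaged over the unmarked spots of a probe.

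Probes were compared with limma 3.58.1 (lmFit, eBayes) in R 4.3.3 and adjusted by Benjamini-Hochberg over all tested probes. A probe counted as above background on an array where at least 0.5 of its spots did. Exact permutation tests used scipy 1.17.1. The fit was tested on simulated data. Precision is limited by 3 arrays per group.

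The members, gene lists and tests were chosen with earlier results of these data known. The text names the 15 largest increases and decreases among called probes whose groups do not overlap, 1 probe per accession, all members in a list of widely studied non-coding RNAs, and up to 10 calls each way that only the fit with marked spots kept could make. Marker and partner lists use the probe of a gene with the highest mean.

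Alternatives were quantile, array median, cyclic loess and E1A spike-in scaling, marked spots kept, no filter and a filter on all 6 arrays, trend and robust eBayes, array weights, a threshold of 0.01, normexp (offset 50) on the median signal, the slide row as a block, NR_ or XR_ probes alone, and each array left out. Promoters came from RefSeq (GRCr8). H19 is not analysed here.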

Additional observations from a re-analysis of the deposited data

How the results depend on the processing

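Under the alternatives, the 16 increases and 4 decreases moved most in the decreases. The count of decreases was 9 with quantile normalization, 15 with the array median, 12 with array weights, 7 with normexp on the median signal and 1 with E1A scaling. The median difference of 0.11 became -0.12 with quantile normalization, -0.27 with the array median, -0.083 with marked spots kept, -0.023 with no filter on dim probes and 0.47 with E1A scaling. Keeping marked spots and dropping the filter change which probes are tested. A scaling shifts every probe, and over the scalings the median over all probes ran from -0.38 with the array median to 0.35 with E1A scaling. With the slide row as a block there were 10 increases, 1 decrease and 1088 calls over all probes in place of 2525. Over all probes there were 1606 calls with the filter on all 6 arrays and 4070 with array weights. At an adjusted p under 0.01 there were 8 increases, 1 decrease and 1259 calls over all probes. Among the 12 tested NR_ probes alone there were 2 increases and 0 decreases, beside 15.2% and 4.83% of all probes. An unadjusted limma p under 0.05 was found for 3 of the 12, beside 4065 of 12620 over all probes.

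With each array left out in turn, increases ran from 10 to 18, decreases from 1 to 7, calls over all probes from 1445 to 2833 and the median from 0.01 to 0.15. Increases numbered 10 without normal replicate 2 and 10 without normal replicate 3. Decreases numbered 2 without normal replicate 1, 1 without normal replicate 2, 1 without normal replicate 3, 2 without fibrosis replicate 1 and 7 without fibrosis replicate 2. Calls over all probes numbered 1653 without normal replicate 2 and 1445 without normal replicate 3. Of 24 named calls, 7 held in every alternative computed at the 0.05 threshold (Abhd11-as1, XR_085975, XR_146326, XR_145924, XR_145822, XR_145793 and XR_008822), 17 missed it in at least 1, and 0 changed sign. Rpph1, never called, changed sign to -0.11 with the array median, -0.13 with array weights, -0.40 with the slide row as a block and -0.46 without fibrosis replicate 3, its values with an array left out running from -0.46 to 0.62. Leaving out an array also leaves fewer samples, and where a spot was marked it can leave 1 value in a group. XR_145822, counted among the 7, had 1 fibrotic value without fibrosis replicate 1 and without fibrosis replicate 2. Those fits, like the slide row block with its single fibrosis array, show little about whether a call holds. The cause of the other changes was not tested.

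Normexp on the mean signal was not run, since the columns used here hold the median signal. Normexp on the median signal, the E1A scaling, the slide row block and the combinations with marked spots kept were chosen after seeing the data. Signals at background limit all statements on dim probes. No paired analysis was possible because the replicate numbers follow the order of the records and the labels pair no animals.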
